A study of Mus musculus with 7 samples.

Results

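The Bcl2 family decides whether a cell's mitochondria release the factors that start apoptosis, and 8 of its genes (Bcl2, Bcl2l1, Mcl1, Bax, Bak1, Bcl2l11, Bad and Bid) were followed in the mouse uterus after dihydrotestosterone (DHT). Members were taken by gene symbol, with every probe set named for them. Of the 8 genes, 7 had a named probe set, with 13 probe sets among the 12422 on the array that are not the maker's controls. No probe set carried the name of Bax in the annotation used here, so that gene was not analysed here. The floor was a signal of 145.9, to which lower signals were raised. A probe set passed the filter when its mean after that step lay above the floor, so 1 array above it was enough. Of the 13 probe sets 11 passed, and each of the 7 genes kept at least 1.

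The samples were 7 pools of uterus RNA from C57BL/6 females given in the labels as 10 to 11 weeks old, each on 1 Affymetrix U74Av2 array. The labels also say that mice were received at that age and kept for 4 weeks, so age at use may have been higher. All mice, controls included, had their ovaries removed 7 days before they were killed. In 6 groups DHT, an androgen that is not turned into estrogen, was injected under the skin at 0.1 mg per mouse 1, 3, 6, 12, 18 or 24 h before death, and the control group received vehicle 24 h before death. The treatment text speaks of 10 mice without saying whether that many went into each pool. Each time had 1 array, so a difference at a single time has no replicate check. Only the 24 h array has a vehicle array of matched time, and at the other times DHT and time since injection cannot be told apart.

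Proteins of this family share short stretches called BH domains and act at the outer mitochondrial membrane. Bax and Bak1 form pores there, Bcl2, Bcl-xL (from Bcl2l1) and Mcl1 hold them in check, and the BH3-only proteins Bim (from Bcl2l11), Bad and Bid free or activate them. Once cytochrome c leaks out, caspases are activated in a chain that ends with the executioners. In the uterus, loss of ovarian hormones is known to bring on apoptosis of epithelial cells, and steroid treatment to reduce it.

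The clearest pattern was in Bcl2l11, whose brightest probe set was lower at every DHT time and lowest from 12 h on. Both bright Bcl2 probe sets were lower in the late means, while Bak1 stayed within 0.21 of vehicle on the log2 scale. None of the 11 probe sets passed the test. For tests the arrays at 1, 3 and 6 h were joined as the early phase and those at 12, 18 and 24 h as the late phase. The p-values come from limma with Benjamini-Hochberg adjustment over 8421 probe sets at a threshold of 0.05, with the vehicle array assumed to vary like the others. The spread behind them is between arrays at different times.

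The promoters of 3 members are shown because Bcl2l11 and Bcl2 had the lower signals and Mcl1, high on the early arrays, stands beside them. The sequences come from RefSeq on build GRCm38.p6, each the 250 bases ahead of an annotated start, and capitals mark matches to the motifs described after them.
Bcl2l11 (chr2:128125788-128126037, plus strand): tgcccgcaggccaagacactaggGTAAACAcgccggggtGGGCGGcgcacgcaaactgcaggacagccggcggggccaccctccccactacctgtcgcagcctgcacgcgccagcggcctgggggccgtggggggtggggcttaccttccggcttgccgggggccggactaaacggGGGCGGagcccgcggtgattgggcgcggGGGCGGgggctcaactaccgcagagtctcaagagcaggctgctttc
Bcl2 (chr1:106714291-106714540, minus strand): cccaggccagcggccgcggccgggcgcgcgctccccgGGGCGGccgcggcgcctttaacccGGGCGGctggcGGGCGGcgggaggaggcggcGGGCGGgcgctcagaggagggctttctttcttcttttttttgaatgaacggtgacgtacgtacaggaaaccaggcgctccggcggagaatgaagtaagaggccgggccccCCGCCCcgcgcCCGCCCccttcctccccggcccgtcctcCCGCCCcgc
Mcl1 (chr3:95658471-95658720, plus strand): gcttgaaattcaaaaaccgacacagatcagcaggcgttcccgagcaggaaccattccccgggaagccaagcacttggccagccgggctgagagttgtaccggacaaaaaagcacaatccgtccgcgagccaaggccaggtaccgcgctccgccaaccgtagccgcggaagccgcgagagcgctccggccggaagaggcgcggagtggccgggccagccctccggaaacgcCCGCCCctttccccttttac

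The 5 motifs were searched on both strands, in 11 such windows for the 7 measured members and in 32851 windows in all. They were chosen with values of these data known. The half-site of androgen and glucocorticoid receptors, AGAACA, was in none of the 11 windows and in 16.1 percent of all windows. Its full palindrome, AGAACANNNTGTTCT, which contains the half-site, was in none of the 11 and in 0.00913 percent of all. GTAAACA, the letters that FOXO factors bind, was in 1 of the 11 windows and in 3.17 percent of all. That match lies 227 bases ahead of the Bcl2l11 start shown above, and is the first stretch of capitals there. The window of the other annotated Bcl2l11 start (chr2:128127325-128127574, not shown) had 0 such matches. The cyclic AMP response element TGACGTCA was in none of the 11 and in 1.55 percent of all. The GC box, GGGCGG, was in 6 of the 11 windows and in 32.7 percent of all, with 7 copies at Bcl2, 3 in the Bcl2l11 window shown and 1 at Mcl1. A window with no match says only that those letters are not in it. The Bcl2 window is 74.8 percent G and C with 36 CpG pairs, against medians of 52.4 percent and 6 pairs over all windows.

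Among the anti-apoptotic genes, Bcl2 had 3 probe sets, all designed from the same sequence record. Its brightest, 98870_at, had a signal of 1346.4 on vehicle and of 1038.3, 1082.2, 849.2, 800.8, 1151.3 and 972.2 at 1, 3, 6, 12, 18 and 24 h. Every DHT array thus lay below vehicle, least at 18 h (log2 ratio -0.23) and most at 12 h (-0.75). The log2 difference from vehicle was -0.48 ± 0.24 (limma SE, 3 arrays) for the late phase (adjusted p = 0.495) and -0.45 ± 0.24 for the early phase (adjusted p = 0.892).

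The second Bcl2 probe set, 98869_g_at, had 919.0 on vehicle and 933.5, 771.9, 671.9, 638.1, 739.9 and 600.4 at the 6 DHT times in order. It was level with vehicle at 1 h and lower at the other times, with its lowest value at 24 h. Its late difference was -0.48 ± 0.22 (limma adjusted p = 0.472), the same size as on the brighter probe set. The third, 98868_at, lay near the floor at 100.7 to 210.1, above vehicle at 1, 6 and 24 h and at the floor at 3, 12 and 18 h. Its vehicle signal, 149.1, was so close to the floor that a lower level could not show. The late difference of 0.06 ± 0.21 therefore says nothing of one, and it was -0.23 with the floor at the 20th percentile of all signals.

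Bcl2l1, the source of Bcl-xL, was measured by 99027_at, with 1222.7 on vehicle and 1023.2, 1345.8, 1049.9, 925.2, 1372.6 and 933.5 at 1 to 24 h. Values above vehicle at 3 and 18 h alternated with values below it, and the phases overlapped. The late difference was -0.21 ± 0.28 (limma adjusted p = 0.812). The other Bcl2l1 probe set never reached the floor, with signals of 9.4 to 40.2.

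Some dips of Bcl2 and Bcl2l1 fell on the same arrays as those of 6 of the maker's controls that read beta-actin and Gapdh in the wrong orientation (opposite-strand controls), which should find little target. Their mean log2 ratio to vehicle was 0.02, 0.31, -0.81, -0.98, 0.41 and -0.58 at 1 to 24 h, where Bcl2l1 99027_at had -0.26, 0.14, -0.22, -0.40, 0.17 and -0.39. Both were above vehicle at 3 and 18 h and below it at 6, 12 and 24 h. Bcl2 98870_at was likewise lowest at 6 h (-0.66) and 12 h (-0.75). At 3 and 18 h, where the mean of the controls was above vehicle, Bcl2 98870_at was below it (-0.32 and -0.23). Of the 6 controls, 4 were above the floor on all arrays. The highest at 3 and 18 h was a Gapdh control (1.2 and 1.24), whose log2 ratio was 0.0 at 6, 12 and 24 h. The lowest control was at -0.04 at 3 h and -0.1 at 18 h, so the mean does not stand for every control. The part of what moved the controls in the Bcl2 and Bcl2l1 values was not tested.

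Mcl1, a short-lived guardian that cells must keep making, had 1345.0 on vehicle and 1591.8, 1576.2, 1485.5, 1244.8, 1126.6 and 1514.4 at 1 to 24 h on its only probe set. All 3 early arrays were above vehicle, by 0.24, 0.23 and 0.14 on the log2 scale, while 12 and 18 h were below it and 24 h above it again. The late-minus-early difference was -0.27 ± 0.12 (limma adjusted p = 0.517). The 24 h value lay within the early range, so the phases overlapped.

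Of the pore-forming members, Bax and Bak1, only Bak1 was measured, by 104710_at. Its signal was 624.2 on vehicle and 559.6, 681.7, 665.3, 720.4, 633.2 and 675.1 at 1 to 24 h. These values span a log2 range of 0.36, the narrowest of the 11 probe sets. The difference from vehicle was 0.11 ± 0.16 late and 0.02 ± 0.16 early (limma adjusted p = 0.828 and 1.0).

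Among the BH3-only genes, Bcl2l11 makes Bim, which binds all the guardians and is regulated partly through its mRNA. Its brightest probe set, 100988_at, had 1392.6 on vehicle and 1285.8, 1059.7, 1210.8, 904.5, 917.4 and 847.0 at 1 to 24 h. The late arrays all lay below the early arrays, and the early arrays all lay below vehicle. Of all 8421 probe sets, 1.54 percent had that order, and 6.61 percent had all late arrays below all early ones. It was the only 1 of the 11 members' probe sets with either, and 0 had all late arrays above all early ones, where 8.18 percent of all did. The late level was 0.64 of vehicle, a log2 difference of -0.65 ± 0.13 (limma adjusted p = 0.187), which missed the threshold. It ranked 147 of 8421 by p. The late-minus-early difference, which does not use the vehicle array, was -0.41 ± 0.09 (limma adjusted p = 0.291). An exact two-sided permutation of the 6 DHT arrays gave p = 0.1, the smallest that 3 against 3 allows. Any probe set with all late arrays on 1 side of all early ones reaches it, so it adds nothing to that order.

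A second Bcl2l11 probe set, 99418_at, designed from another sequence record, did not show this. It had 249.1 on vehicle and 315.8, 328.8, 246.0, 233.9, 293.5 and 290.2 at 1 to 24 h, above vehicle at 4 of the 6 times. Its late difference was 0.12 ± 0.23 (limma adjusted p = 0.880). The third probe set, 99419_g_at, was under the floor on all 7 arrays, at 75.9 to 108.8. The lower level of Bcl2l11 therefore rests on 1 of the 2 probe sets above the floor, and the difference between them was not tested.

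**Figure D1:**
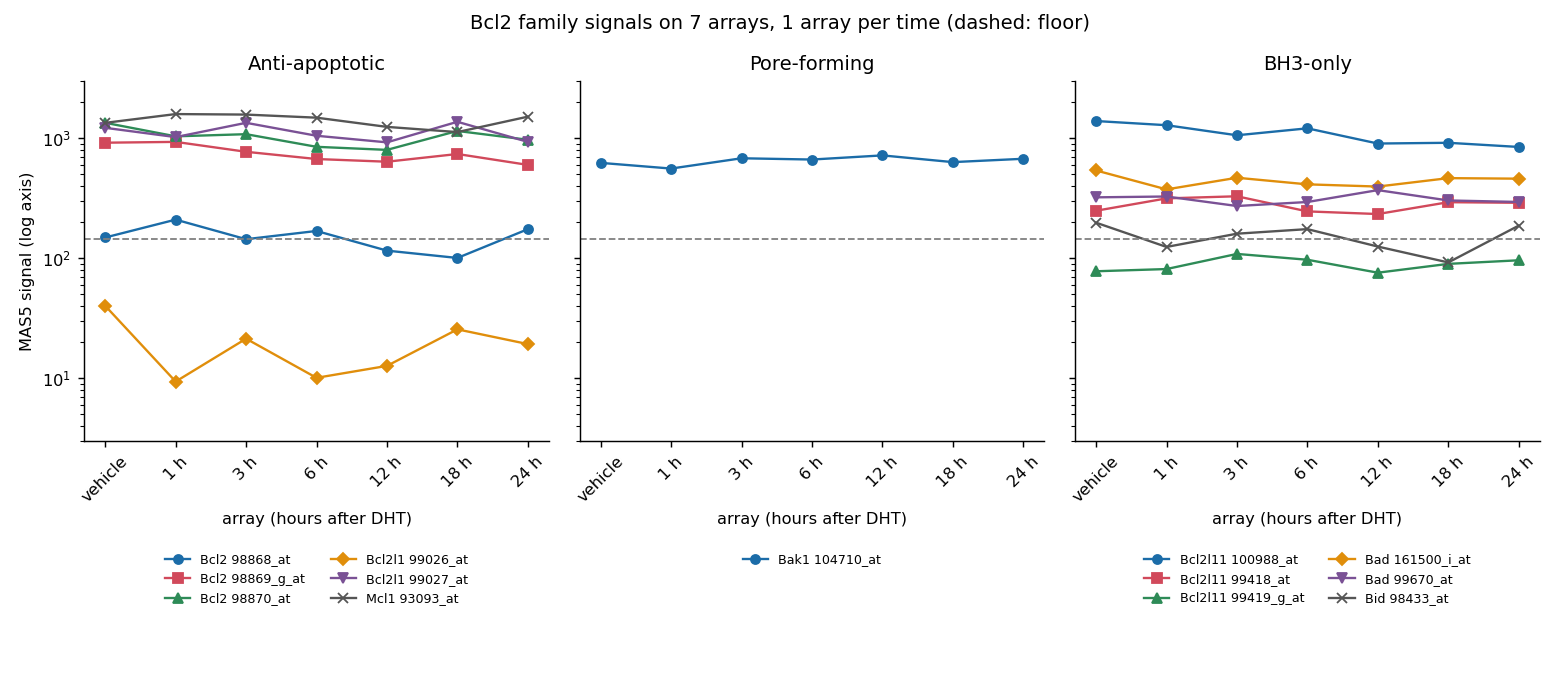
MAS5 signal on a log axis for the 13 probe sets of the 7 measured members on the vehicle array and the 6 DHT arrays in time order, in 3 panels by role. Points are single arrays and the dashed line is the floor of 145.9. Bcl2l11 100988_at lies at 847.0 to 917.4 on the 3 late arrays, below its early values, while Bak1 stays between 559.6 and 720.4.

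Bad, which neutralises guardians when growth signals are lost, had probe sets that differed. The brighter, 161500_i_at, was 539.6 on vehicle and 375.2, 469.2, 413.4, 396.2, 465.7 and 460.9 at 1 to 24 h, lower at all 6 times and lowest at 1 h. The suffix of its name marks a set with fewer probes than the maker's standard. The other, 99670_at, had 272.8 to 370.0 after DHT, on both sides of its vehicle value of 322.2. Late differences were -0.30 ± 0.19 on the first (limma adjusted p = 0.590) and 0.00 ± 0.20 on the second.

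Bid, which caspase-8 cuts to link death receptors to mitochondria, lay close to the floor on its only probe set, 98433_at. It had 198.1 on vehicle and 124.4, 160.4, 175.1, 125.3, 92.4 and 187.2 at 1 to 24 h. All DHT arrays were below vehicle, and those at 1, 12 and 18 h were under the floor, where the log2 ratio of -0.44 is only a bound on the difference. The late difference of -0.32 ± 0.18 is thus also a bound (limma adjusted p = 0.535).

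Counted together, few member values lay far from vehicle. Of the 66 pairs of a probe set and a time, 6 were at least 1.5-fold lower than vehicle and 0 at least 1.5-fold higher, where 5.6 percent and 5.72 percent of all such pairs were. At 1 and 3 h 0 of the 11 were that much lower (background 3.15 and 5.04 percent), at 6 h 1 (6.79 percent), at 12 h 2 (7.37 percent), at 18 h 1 (5.65 percent) and at 24 h 2 (5.57 percent). At 1, 3, 6, 12, 18 and 24 h 0 were that much higher, where 3.24, 5.07, 6.6, 8.55, 5.76 and 5.08 percent of all were. Of the 6 pairs, 3 were Bcl2l11 100988_at at 12, 18 and 24 h, 2 were Bcl2 98870_at at 6 and 12 h and 1 was Bcl2 98869_g_at at 24 h. The count of 6 is 9.09 percent of 66, and such pairs share probe sets and the vehicle array, so the gap to the background was not tested. No pair reached 2-fold. Below vehicle at all 6 times were 4 of 11 probe sets (Bcl2 98870_at, Bcl2l11 100988_at, Bad 161500_i_at and Bid), where 16.8 percent of all were, and above it at all times were 0, where 12.7 percent were.

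The limma fit called 0 of the 11 probe sets in each of the 3 contrasts. It called 0.273 percent of all probe sets early against vehicle, 0.309 percent late against vehicle and 0.0 percent late against early. Those called, 23 early and 26 late, were all lower, and 16 of each lay at the floor on all 6 DHT arrays. At an unadjusted p under 0.05, the count lower was 0 early, 1 late against vehicle and 1 late against early, where 3.84, 6.19 and 4.49 percent of all were. The count higher was 0 in each, where 2.49, 5.53 and 5.76 percent were, and in either direction the background was 6.33, 11.7 and 10.2 percent. Both lower ones were Bcl2l11 100988_at. Over the brightest probe set of each of the 7 genes, the median log2 difference from vehicle was -0.30 late and -0.24 early, against 0.00 for both over all 6326 genes. Over all 11 member probe sets it was -0.21 late and -0.12 early. In the late phase 6 of the 7 genes were below vehicle and 1, Bak1, above it, where 3078 of all 6326 genes were below. Of the 11 probe sets 8 were below and 3 above.

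**Figure D2:**
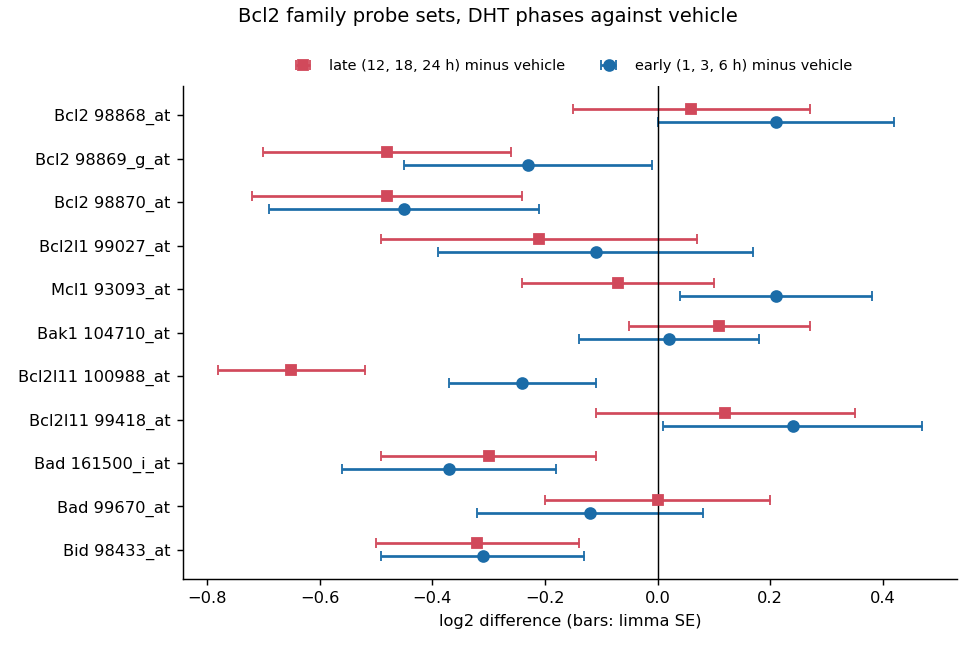
Log2 difference from vehicle of the late (squares) and early (circles) DHT phases for the 11 member probe sets above the filter, with limma SE as bars. Bcl2l11 100988_at has the lowest late value, -0.65, and Bak1 lies at 0.11 late and 0.02 early.

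Tissue markers placed these values in a mixed tissue. Above the filter were 8 of 8 smooth muscle, 9 of 9 epithelial and 7 of 8 stromal markers, with Vim under the floor on all arrays. In pooled tissue fewer cells of a type and less RNA per cell cannot be told apart. Summed signals of the 8 smooth muscle markers were 49148 to 65060 late and 37609 to 39793 early, against 41390 on vehicle. Those of the 8 stromal markers were 54112 to 71536 late and 47788 to 50693 early, against 48033 on vehicle. The stromal sum followed 3 collagen genes, with late log2 differences from vehicle of 1.23 (Col1a1), 1.23 (Col3a1) and 0.81 (Col1a2), while Pdgfra (-0.40) and Thy1 (-0.46) were lower and Dcn (-0.07) and Lum (0.01) near vehicle. None of these passed the test. Epithelial sums overlapped between the phases, at 11817 to 14021 late and 11489 to 13382 early. The ratio of 3 prime to 5 prime signal, a measure of RNA quality, was 1.03 to 1.19 for beta-actin and 0.83 to 0.89 for Gapdh over the 7 arrays.

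The summed signal of fat cell markers had a course like that of Bcl2l11. All 3 such markers on the array (Adipoq, Fabp4 and Retn) were above the filter, and their sum was 4175 on vehicle and 3605, 3092, 3222, 2983, 2442 and 2236 at 1 to 24 h. Like Bcl2l11 100988_at, the sum had every late array below every early one and every early one below vehicle. Adipoq, which encodes adiponectin, had log2 ratios of -0.15, -0.31, -0.38, -0.52, -0.76 and -0.97. Adhering tissue was removed from the uteri before freezing. Retn was also lower at all 6 times, at 802.1 to 1051.4 late and 970.3 to 1220.2 early, against 1521.3 on vehicle. Fabp4 did not follow this course, with 210.4, 181.8 and 151.8 late and 156.8, 126.9 and 152.6 early, against 185.9 on vehicle. The part of the fat cell signal in the Bcl2l11 values was not tested. Of the lymphocyte markers, 5 of 8 (Cd3e, Cd3g, Cd3d, Cd8a and Cd79b) were under the floor on all arrays, and the summed signal of the 8 was 1334 to 1526 late and 1514 to 1933 early, against 1844 on vehicle.

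Genes with the most similar course were sought for the 4 members whose brightest probe set was above the floor on all arrays and had a log2 range of at least 0.5. Pearson's r of log2 signal over the 7 arrays was taken against 3175 genes under the same conditions, as a description of arrays scaled to one mean. For Bcl2l11 the 3 highest were Banp (0.971), a nuclear protein gene, C5ar1 (0.957), the receptor for complement fragment C5a, and Lpl (0.947), the lipase gene of fat and muscle. Lpl had 962.3 on vehicle and 738.3, 629.9 and 631.8 at 12, 18 and 24 h. For Bcl2 they were Eya1 (0.986), Gpr50 (0.981) and Gpr27 (0.978). For Bcl2l1 they were Snrpb (0.958), which encodes a core splicing protein, Nck2 (0.935) and Cop1 (0.933). For Bad the 3 highest were Aanat (0.992), S1pr3 (0.944) and Psg19 (0.926). These are the extremes of 3175 values, each from only 7 arrays, so a high r alone shows no link, and none was tested.

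The rest of the pathway was read from lists holding 101 genes, of which 76 were on the array by name and 64 had a probe set above the filter. By their brightest probe sets, 0 of the 64 passed limma in any contrast. At an unadjusted p under 0.05 late against vehicle, 2 were higher and 4 lower, where 369 and 370 of all 6326 genes were. Their median late difference was 0.00, and 33 lay above vehicle and 31 below it.

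Among the caspases, Casp6, which cuts nuclear lamins, was under the floor on all 7 arrays, with signals of 91.5 to 139.0 after DHT and 88.7 on vehicle. Such signals do not show that its mRNA was absent. Of the caspases on a second list, mostly initiator and inflammatory ones, 6 of 7 were above the filter, with a median late difference of 0.00. Casp2, an initiator caspase chosen after its values were seen, had 2205.9 on vehicle and 1798.2, 1505.1, 1661.2, 1620.2, 1527.0 and 1583.2 at 1 to 24 h. It lay below vehicle at every time with no further step late, at -0.48 ± 0.12 late and -0.42 ± 0.12 early (limma adjusted p = 0.229 and 0.570).

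Upstream of the BH3-only genes, the transcription factor gene Foxo3, whose product is known to activate Bcl2l11 in other cells, was lower from 6 h on. It had 2520.9 on vehicle and 2561.3, 2222.3, 1092.7, 1110.9, 1481.1 and 1231.5 at 1 to 24 h. Its log2 ratio was -0.18 at 3 h and -1.21 at 6 h, where Bcl2l11 100988_at had -0.39 and -0.20. With 1 array per time, the order of the courses was not tested. Foxo3 differed from vehicle by -0.99 ± 0.48 late and -0.45 ± 0.48 early (limma adjusted p = 0.490 and 0.945).

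Pim1, a survival kinase that phosphorylates Bad, had a like course, with 2295.7 on vehicle and 2100.3, 2097.4, 1314.1, 1101.5, 1188.0 and 1306.9. Its late difference was -0.94 ± 0.29 (limma adjusted p = 0.320). The other Pim1 probe set was under the floor on all DHT arrays, against 191.0 on vehicle, so that its late difference of -0.39 is only a bound. Its limma adjusted p of 0.0413 rests on floored values with no spread, and supports no call. Among the 14-3-3 genes, whose proteins hold phosphorylated Bad in the cytosol, Ywhag was highest at 6 and 12 h (0.63 and 0.60) and Sfn at 3 h (1.06). The list of 24 binding partners and regulators had a median late difference of -0.03.

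**Figure D3:**
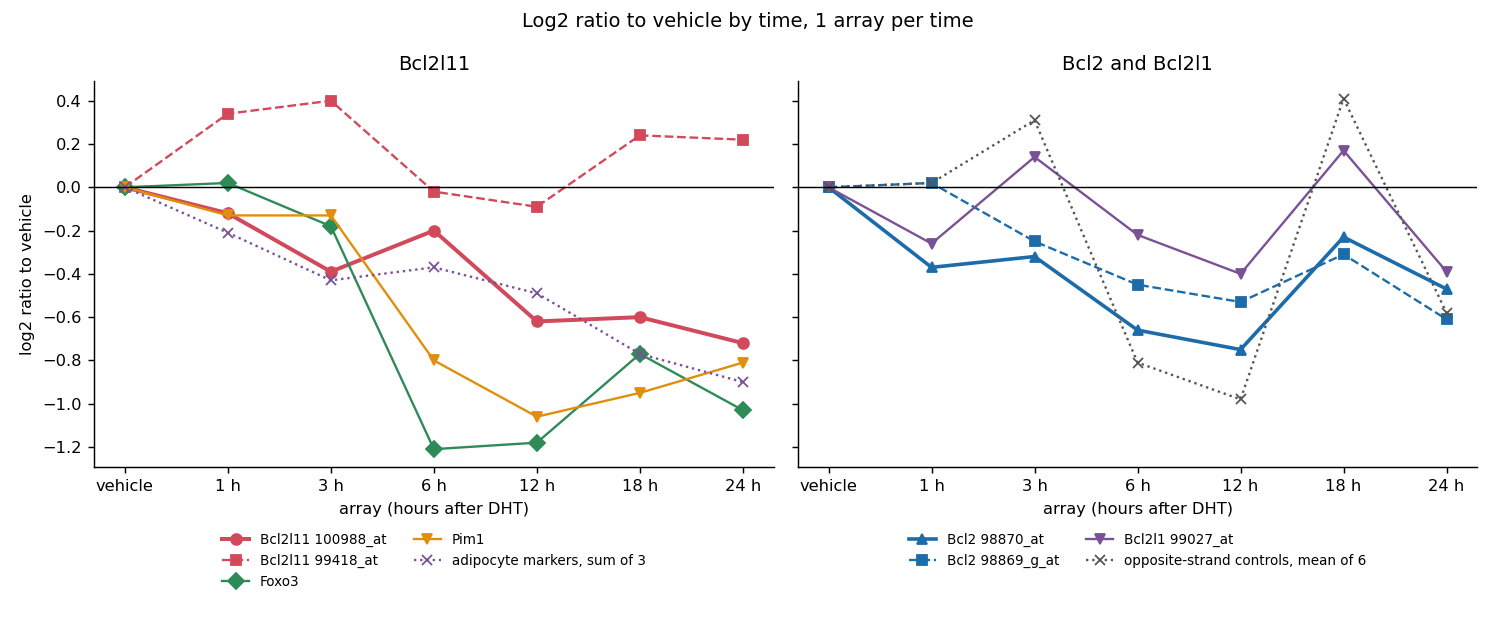
Log2 ratio to vehicle at each time, 1 array per time, with vehicle at 0. On the left Bcl2l11 100988_at reaches -0.72 at 24 h beside Foxo3, Pim1 and the sum of 3 adipocyte markers, while Bcl2l11 99418_at stays between -0.09 and 0.40. On the right Bcl2 and Bcl2l1 are drawn with the mean of 6 opposite-strand controls, which is lowest at 12 h (-0.98).

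Among other Bcl2 family genes, 8 of the 9 on the array were above the filter, with a median late difference of -0.05. Bcl2l10, an anti-apoptotic gene best known from oocytes, had 444.7 on vehicle and 244.3, 203.6, 144.5, 218.7, 142.5 and 274.4 at 1 to 24 h. Those at 6 and 18 h were under the floor, so the late difference of -1.11 ± 0.42 is a bound (limma adjusted p = 0.402). These values come from 162021_r_at, whose suffix marks relaxed rules of probe choice. The other Bcl2l10 probe set was under the floor on every DHT array.

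Mitochondrial factors and inhibitors of caspases gave few differences. Apoptosome and mitochondrial genes above the filter numbered 7 of 10, with a median late difference of 0.10, and Endog, a mitochondrial nuclease gene, was -0.60 at 6 h and -0.69 at 12 h. Birc5, which encodes survivin, an inhibitor of apoptosis family protein that also serves in mitosis, had 191.5 on vehicle, 171.6 to 207.8 early and 426.1, 618.6 and 495.0 late. Its late difference from vehicle was 1.41 ± 0.24 (limma adjusted p = 0.151), and the other 4 inhibitors above the filter lay between -0.29 (Birc6) and 0.34 (Birc3). Among caspase substrates, Parp1, a DNA repair enzyme gene, was 0.60, 0.83 and 0.64 at 6, 12 and 18 h from a vehicle signal of 173.0, and the median of the 8 genes was -0.01.

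Death receptor genes were measured in part. Of 11 on the array 6 were above the filter, and Fas, Fasl, Tnf, Traf1 and Tnfsf10 were under the floor on all 7 arrays. So were the stromal marker Vim and the mitochondrial genes Vdac1 and Diablo, and such a signal does not show that an mRNA was absent. Tradd, an adaptor of the TNF receptor, was far lower on the 3 h array, with 443.0 against 2103.6 on vehicle, and 1042.4 at 1 h. Its probe set, 160689_r_at, has a suffix that marks relaxed rules of probe choice. By 18 h it was at 2181.8, and its early difference of -1.26 ± 0.66 missed the threshold (limma adjusted p = 0.893).

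**Figure D4:**
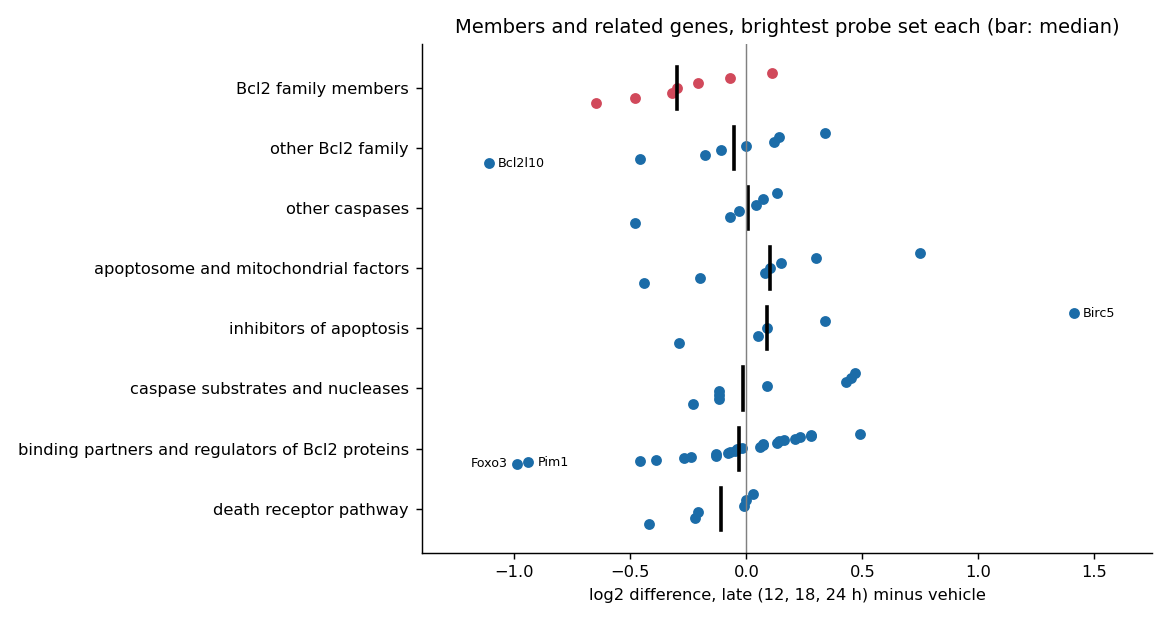
Late minus vehicle log2 difference, 1 point per gene by its brightest probe set above the filter, with the 7 members in the top row, 7 lists under it and a bar at each median (height within a row only separates the points). The members' median is -0.30, those of the lists lie between -0.11 and 0.10, and Birc5 (1.41) and Bcl2l10 (-1.11) lie farthest out.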

How the data were processed

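RNA of pooled uteri was measured on 7 Affymetrix U74Av2 arrays. The deposited table holds MAS5 signals (per the submitters' processing notes), an intensity that is not on a log scale. Tested on the values, all arrays had a mean of 499.6 to 499.9 over their central signals, so the authors' scaling was kept, and medians were 227.4 to 237.0. Detection calls were not used, and the number of arrays limits the precision of every value. Array titles give 18 h where the design text lists another time, and the titles were followed.

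Gene symbols came from the table pairing probe sets with genes. Of 12422 probe sets that are not controls, 10833 named 1 gene, 396 several and 1193 none. The floor, 145.9, is the 40th percentile of the whole table, and log2 was taken of the floored signals. Probe sets whose mean of floored values lay above that floor, 8421, entered limma 3.58.1 (R 4.3.3, variance trend, 4 residual degrees of freedom, two-sided). The script was tested on simulated data. For counts of genes the brightest probe set stood for each gene. Ratios at single times were described, not tested.

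The text names all members, Casp6, genes of the related lists at least 1.5-fold from vehicle in the same direction at 2 neighbouring times, and the 3 genes most like a member. Casp2 lies outside that rule and was added after its values were seen. Tissue markers and some other list genes are named in passing. Members, lists and motifs were chosen with earlier results of these data known. Alternatives changed the floor, scaling, filter, variance trend, fold threshold, probe set and arrays used. A ratio of Bax to Bcl2 was planned and not run, as no probe set was named for Bax.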

Additional observations from a re-analysis of the deposited data

How the results depend on the processing

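The limma fit called 0 of the member probe sets in each contrast under each of the 11 alternatives against vehicle and the 12 for late against early, in which the smallest adjusted p for a member was 0.117. The late difference of Bcl2l11 100988_at was -0.67 to -0.61 when arrays were left out in turn, while the second brightest probe set gave 0.12. Over all probe sets the late calls against vehicle numbered 26, with 137 without the filter, 0 without the variance trend, 15 after quantile normalization, 42 with the floor at the 60th percentile and 0 to 73 when arrays were left out (0 without 12 h or without 18 h, 73 without 3 h). The early calls numbered 23, with 121, 0, 14, 31 and 8 to 55 (8 without 6 h, 55 without 3 h). For late against early they were 0 (863 at an unadjusted p under 0.05), and 1 without the 6 h array.

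The 6 pairs at least 1.5-fold from vehicle became 0 at 2-fold and 25 at 1.2-fold, of which 22 were lower and 3 higher. The share over all probe sets at those thresholds is not given here, so the 25 have no background beside them. The 6 became 9 (of 72) with the floor at the 20th percentile, and 4 to 6 when a DHT array was left out (4 without 12 h or without 24 h). Signs turned for values that had not passed. Late against vehicle, Bcl2 98868_at gave -0.23 with the floor at the 20th percentile and -0.03 to 0.10 with arrays left out, and Mcl1 gave -0.18 to 0.03. Late against early, leaving out arrays gave -0.16 to 0.10 for Bcl2 98870_at, -0.28 to 0.03 for Bcl2l1 99027_at, -0.13 to 0.05 for Bid, -0.12 to 0.34 for Bcl2l10, -0.46 to 0.02 for Endog and -0.28 to 0.15 for Sfn, and the second probe set gave 0.01 for Ywhag. The cause was not tested. Bcl2l10 with the floor at the 60th percentile (-0.31) and the second Pim1 probe set (-0.39) passed late against vehicle with all DHT arrays at the floor, where values have no spread. No paired analysis was possible because each group has 1 array. The ratio of Bax to Bcl2 was not run.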
